A study of Mus musculus with 12 samples.

Results

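The 46 genes described here belong to the lysosome and to autophagy in the mouse: 10 cathepsins and legumain (proteases), 9 other hydrolases and their activators, 6 subunits of the proton pump, 8 membrane and transport proteins, 11 autophagy genes and 2 transcription factors. They were chosen by gene symbol from a list of names, and all 46 were found among the 55487 gene rows of both deposited count tables. RNA-seq libraries had been made from mouse bone marrow cells in 4 groups of 3. Cells labelled MA9 carried a retroviral vector for the fusion MLL::AF9, an oncogene of acute myeloid leukaemia made from the genes Kmt2a and Mllt3, and cells labelled WT were normal bone marrow cells. Each kind of cell received a mock retrovirus or a retrovirus expressing sPrdm16, the labels' name for a form of the zinc-finger regulator Prdm16. All 4 groups had therefore been transduced, and the MA9 groups had received the fusion vector before the mock or sPrdm16 vector. The series title names cytarabine resistance and metabolic reprogramming as its subject. The labels give no strain, age, promoter or clone, and their growth medium, with mouse IL-3 and serum, names MA9 cells alone. The 3 replicates of a group are not said to come from separate cultures or animals, so each p-value measures the spread between these libraries, which may be technical.

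Lysosomes are acidic compartments in which hydrolases break down material taken up by the cell or delivered from within it by autophagy. The vacuolar proton pump acidifies the lumen, cathepsins and other hydrolases work there, and membrane proteins such as LAMPs protect the limiting membrane and carry products out. Autophagy wraps cytoplasm in membrane marked by LC3 and GABARAP proteins, and the regulators TFEB and TFE3 activate many genes of both systems through a short DNA element that contains CACGTG. Macrophages, monocytes and granulocytes are rich in lysosomes, and cathepsin S trims the chaperone of MHC class II molecules in antigen-presenting cells.

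Libraries held 17217159 to 37390945 counts in all. Structural RNAs took 59.1% to 74.2% of the counts of MA9 mock, 18.6% to 18.8% of those of MA9 sPrdm16 and 1.41% to 2.46% of those of WT libraries, so that counts on nuclear protein-coding genes were 3844558 to 7406093, 16905133 to 28169209 and 16046071 to 17789842. MA9 mock replicate 3 had the fewest such counts and stood apart from the other two. Counts of calls in MA9 cells are given with and without it. Bone marrow markers matched the label in part: neutrophil, monocyte, mast cell, erythroid and megakaryocyte markers were present in WT cells, while in MA9 mock cells 7 of 10 erythroid and 6 of 12 mast cell and basophil markers were at 0 in all 3 libraries.

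The lysosome and autophagy genes were low in MA9 cells beside WT cells before any sPrdm16 was given. Together they made up 0.502% ± 0.0445 (SD, n = 3) of the nuclear protein-coding counts in MA9 mock and 3.83% ± 0.105 in WT mock. On CPM (counts relative to a common library total) scaled over all 12 libraries by TMM, a method that equalises the bulk of genes, the 3 MA9 mock libraries all lay below the 3 WT mock libraries for 44 of the 46 and above them for 0, and Ulk1 and Wipi1 overlapped. Of all 16194 genes tested, 37.9% lay lower in this way and 34.5% higher. With total counts in place of TMM scaling, which moves the median of all genes from -0.07 to -1.17 on the log2 scale, all 46 lay lower. The median log2 ratio of MA9 to WT mock was -2.70 over these genes. Because each genotype has its own table, a difference of genotype and a difference between tables cannot be told apart, and these levels carry no test. In such bulk RNA, fewer cells of a type and less RNA per cell cannot be told apart either.

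The gap was widest for Lgmn, Cd68 and Ctsl, and it varied among the proteases. Lgmn (legumain, an asparaginyl protease) had 1.08, 0.739 and 0.860 CPM in MA9 mock and 115, 105 and 96.8 in WT mock, a ratio of 118. Cd68, a macrophage lysosomal glycoprotein, had 8.06, 9.24 and 13.2 CPM against 808, 832 and 634, a ratio of 74.6. Ctsl, the endopeptidase cathepsin L, had 12.2, 15.7 and 18.9 against 754, 710 and 659. In each of these genes every MA9 library lay far below every WT library. The WT to MA9 ratio was 30.6 for Ctss (cathepsin S), 29.2 for Ctsd (the aspartic protease cathepsin D), 27.4 for Ctsb (cathepsin B) and 27.1 for the tetraspanin gene Cd63. For the other cathepsins the ratio was 10.7 for Ctsa, 8.70 for Ctsz, 8.65 for Ctsc, 6.90 for Ctsh and 6.87 for Ctse. It was small for the autophagy genes Becn1 (Beclin 1, of the lipid kinase complex) at 1.46 and Ulk1 (the initiating kinase) at 1.34, and for the catalytic pump subunit gene Atp6v1a at 1.53. Wipi1, which encodes a phosphoinositide-binding protein of early autophagic membranes, was the 1 gene with a higher mean in MA9 mock, and its libraries overlapped (20.2, 20.5 and 18.1 CPM against 15, 21.9 and 12.4).

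**Figure D1:**
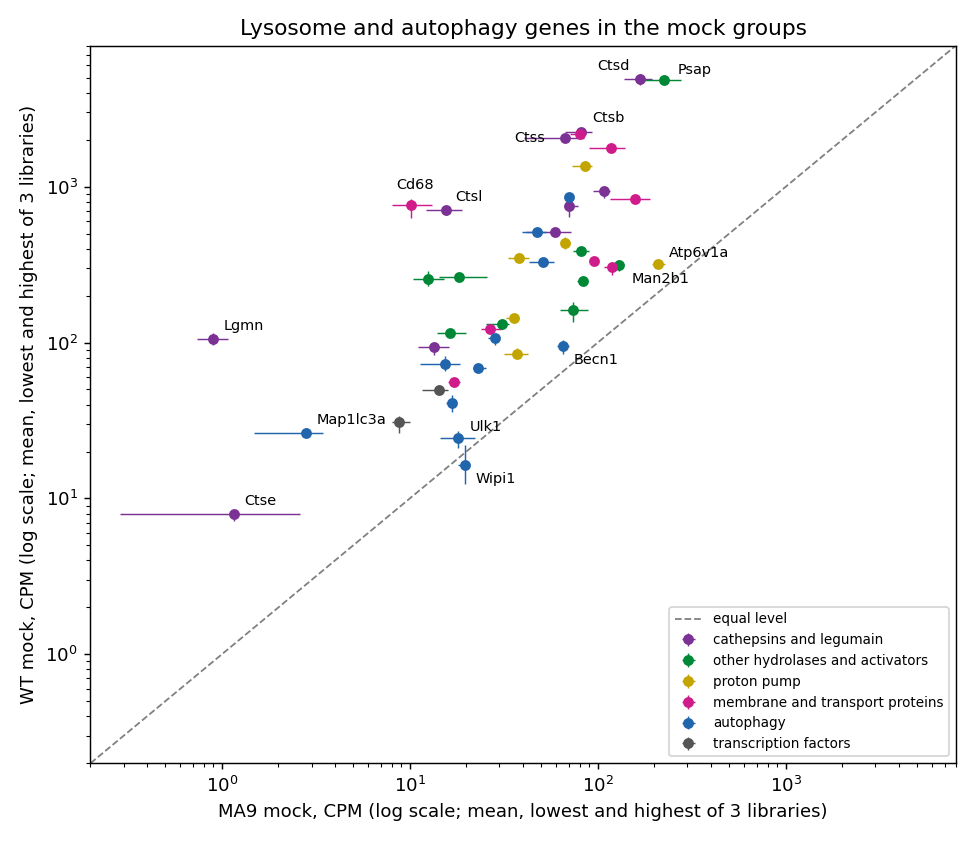
Mean CPM of each of the 46 genes in MA9 mock (horizontal axis) and WT mock (vertical axis), both on log scales and scaled over 12 libraries, with bars from the lowest to the highest of 3 libraries, colours for role groups and a dashed line of equal level. Only Wipi1 lies below the line, Ulk1 lies just above it, and Lgmn, Cd68 and Ctsl lie farthest from it.

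Per kilobase of gene length, which allows levels to be compared between genes, Ctsd and Psap led in WT mock with 2312 ± 190 and 1824 ± 63.9 CPM per kb (SD, n = 3). Psap encodes prosaposin, the precursor of activators of sphingolipid hydrolases. Ctss came next in WT mock with 1513 ± 46.7 CPM per kb, followed by Grn (progranulin) with 761 ± 43.5 and Cd63 with 753 ± 35.6, and these last do not differ beyond their spread. In MA9 mock the leading levels were Psap with 84.3 ± 21.4, Ctsd with 79.1 ± 13.5, Ctsz (the carboxypeptidase cathepsin Z) with 74.6 ± 7.92 and Lamp1 (a main membrane glycoprotein) with 70.6 ± 16.8 CPM per kb. These levels in MA9 mock lie within each other's SD over 3 libraries, though Psap and Ctsd lay above Lamp1 within each library.

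Promoters of the group were searched for CACGTG, a motif that reads the same on both strands, and for TCACGTG on either strand, every match of which contains CACGTG. The RefSeq table (GRCm38.p6) held 37 of the 46 genes, with windows of 300 bases from 250 before the transcript start to 50 after it. CACGTG was found for 12 of the 37 genes (32.4%), against 8.09% of all 27025 genes with a promoter in the table. TCACGTG was found for 10 (27.0%) against 4.29%. The median GC content of the windows was 59.0% in the group and 52.7% in all. Lamp1 had the most matches, with 4 between bases -61 and -15 counted from the start, and Ctsd, Ctsa, Gla (alpha-galactosidase) and the lysosomal cation channel gene Mcoln1 had 2 each. The windows of Lamp1, Mcoln1 and Ctsd are printed to show the element, and those of Glb1 (beta-galactosidase) and Ctss because these were the genes with the largest called falls of their role groups in WT and MA9 cells. CACGTG is in capitals, each is written 5′ to 3′ on the gene's strand, and the windows lie at chr8:13158911-13159210 (plus), chr8:3500269-3500568 (plus), chr7:142387778-142388077 (minus), chr9:114400828-114401127 (plus) and chr3:95526536-95526835 (plus) in this order.
Lamp1: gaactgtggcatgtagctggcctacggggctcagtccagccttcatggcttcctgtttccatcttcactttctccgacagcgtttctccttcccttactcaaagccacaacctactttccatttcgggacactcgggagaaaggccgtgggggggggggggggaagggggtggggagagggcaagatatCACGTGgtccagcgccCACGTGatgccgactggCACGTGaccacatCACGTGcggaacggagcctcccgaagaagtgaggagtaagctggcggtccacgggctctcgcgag
Mcoln1: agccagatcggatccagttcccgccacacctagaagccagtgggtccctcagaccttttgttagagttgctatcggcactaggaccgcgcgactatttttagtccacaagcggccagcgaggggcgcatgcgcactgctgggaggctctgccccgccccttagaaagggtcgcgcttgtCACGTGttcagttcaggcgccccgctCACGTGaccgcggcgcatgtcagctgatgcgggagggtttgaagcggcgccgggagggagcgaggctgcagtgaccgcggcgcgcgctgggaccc
Ctsd: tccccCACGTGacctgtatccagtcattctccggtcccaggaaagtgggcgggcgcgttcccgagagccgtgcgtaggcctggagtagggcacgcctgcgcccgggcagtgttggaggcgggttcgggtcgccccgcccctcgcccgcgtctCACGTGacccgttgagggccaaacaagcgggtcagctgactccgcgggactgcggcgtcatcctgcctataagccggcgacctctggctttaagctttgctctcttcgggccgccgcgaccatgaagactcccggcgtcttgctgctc
Glb1: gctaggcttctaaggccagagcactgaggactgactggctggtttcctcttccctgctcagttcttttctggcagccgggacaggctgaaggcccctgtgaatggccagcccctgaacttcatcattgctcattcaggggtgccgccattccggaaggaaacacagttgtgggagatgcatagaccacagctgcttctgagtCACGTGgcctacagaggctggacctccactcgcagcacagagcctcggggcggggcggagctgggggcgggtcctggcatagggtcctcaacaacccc
Ctss: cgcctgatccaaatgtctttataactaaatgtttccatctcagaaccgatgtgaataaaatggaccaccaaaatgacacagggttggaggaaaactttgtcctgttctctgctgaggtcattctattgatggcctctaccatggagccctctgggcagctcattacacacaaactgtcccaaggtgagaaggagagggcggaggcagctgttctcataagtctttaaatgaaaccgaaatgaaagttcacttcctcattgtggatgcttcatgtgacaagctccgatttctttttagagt
The Glb1 window had 1 match at base -48 and the Ctss window none. Genes with and without the motif were called in both sets: in WT cells 0 rose and 5 fell of 12 with it, and 3 rose and 10 fell of 25 without it. In MA9 cells 2 rose and 2 fell of 11 tested with it, and 6 rose and 5 fell of 25 without it. Of all genes tested, 34.1% were called in WT and 34.6% in MA9 cells. A match is a description of letters and not a binding site.

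With sPrdm16 the 2 genotypes differed in direction. In WT cells most called lysosome and autophagy genes fell, cathepsins and autophagy genes foremost, while in MA9 cells rises and falls were about even and the falls were deep in Ctss, Ctsh and Cd63. Rose and fell are used of genes with an adjusted p under 0.05 (edgeR's quasi-likelihood test, Benjamini-Hochberg over all genes tested), and SE is the standard error of a log2 fold change. In MA9 cells 10 of 45 tested genes rose and 9 fell (42.2% called, against 34.6% of all 14394 genes, 17% rising and 17.5% falling), with a median log2 fold change of 0.17 against 0.03 for all genes. In WT cells 3 of 46 rose and 19 fell (47.8% called, against 34.1% of all 14063 genes, 17.5% rising and 16.6% falling), with a median of -0.20 against 0.01. Lgmn was too low to be tested in MA9 cells. All sPrdm16 libraries lay above all mock libraries for 17 of the genes in MA9 and below them for 11, against 26.7% and 23.4% of all genes. In WT cells the counts were 5 above and 23 below, against 23.8% and 22.8%. As a share of nuclear protein-coding counts the group went from 0.502% ± 0.0445 to 0.532% ± 0.00183 in MA9 cells and from 3.83% ± 0.105 to 3.70% ± 0.0572 in WT cells, and the libraries of mock and sPrdm16 overlapped in both.

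These counts depend on scaling and on single libraries in MA9 cells. With total counts in place of TMM, where the median of all genes moves to 1.43 in MA9 and 0.18 in WT, 41 rose and 1 fell in MA9 cells and 7 rose and 9 fell in WT cells. Of all genes in that setting, 11489 of 14394 rose and 607 fell in MA9 cells. In WT cells 3668 of 14063 rose and 1501 fell. The total-count calls of the role groups below stand beside these counts of all genes. In 1 fit over all 12 libraries, 17 rose and 8 fell in MA9 cells, and with no low-count filter 17 rose and 5 fell. Over all genes 2803 rose and 1905 fell in that 1 fit, and 3455 rose and 2776 fell with no filter. Without MA9 mock replicate 3 the MA9 counts were 19 risen and 11 fallen, and without any 1 of the 3 MA9 sPrdm16 libraries 6 and 6. Calls over all genes moved as well, from 2454 risen and 2525 fallen. They were 3277 and 3225 without that mock library, and 1534 to 1606 and 1772 to 1837 without an MA9 sPrdm16 library. In WT cells 12 genes, in place of 19, fell without WT sPrdm16 replicate 2, and 1778 of all genes in place of 2335. Of the 19 calls in MA9 cells, 11 held whichever library was left out, as did 13 of the 22 in WT cells. Of the 9 genes that fell in MA9 cells, Ctss alone was called as a fall with total counts, Ctsh, Cd63 and Psap were not called, and Ctsa, Ctsc, Atp6v1a, Npc2 and Becn1 were called as rises. Of the 19 that fell in WT cells, 9 were called as falls with total counts and 10 were not called. Total counts include structural RNAs, which took 59.1% to 74.2% of MA9 mock and 18.6% to 18.8% of MA9 sPrdm16 counts. With TMM on nuclear protein-coding genes only, all 19 MA9 calls were kept in the same direction. Shares within a role group, given below, need no scaling between libraries.

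**Figure D2:**
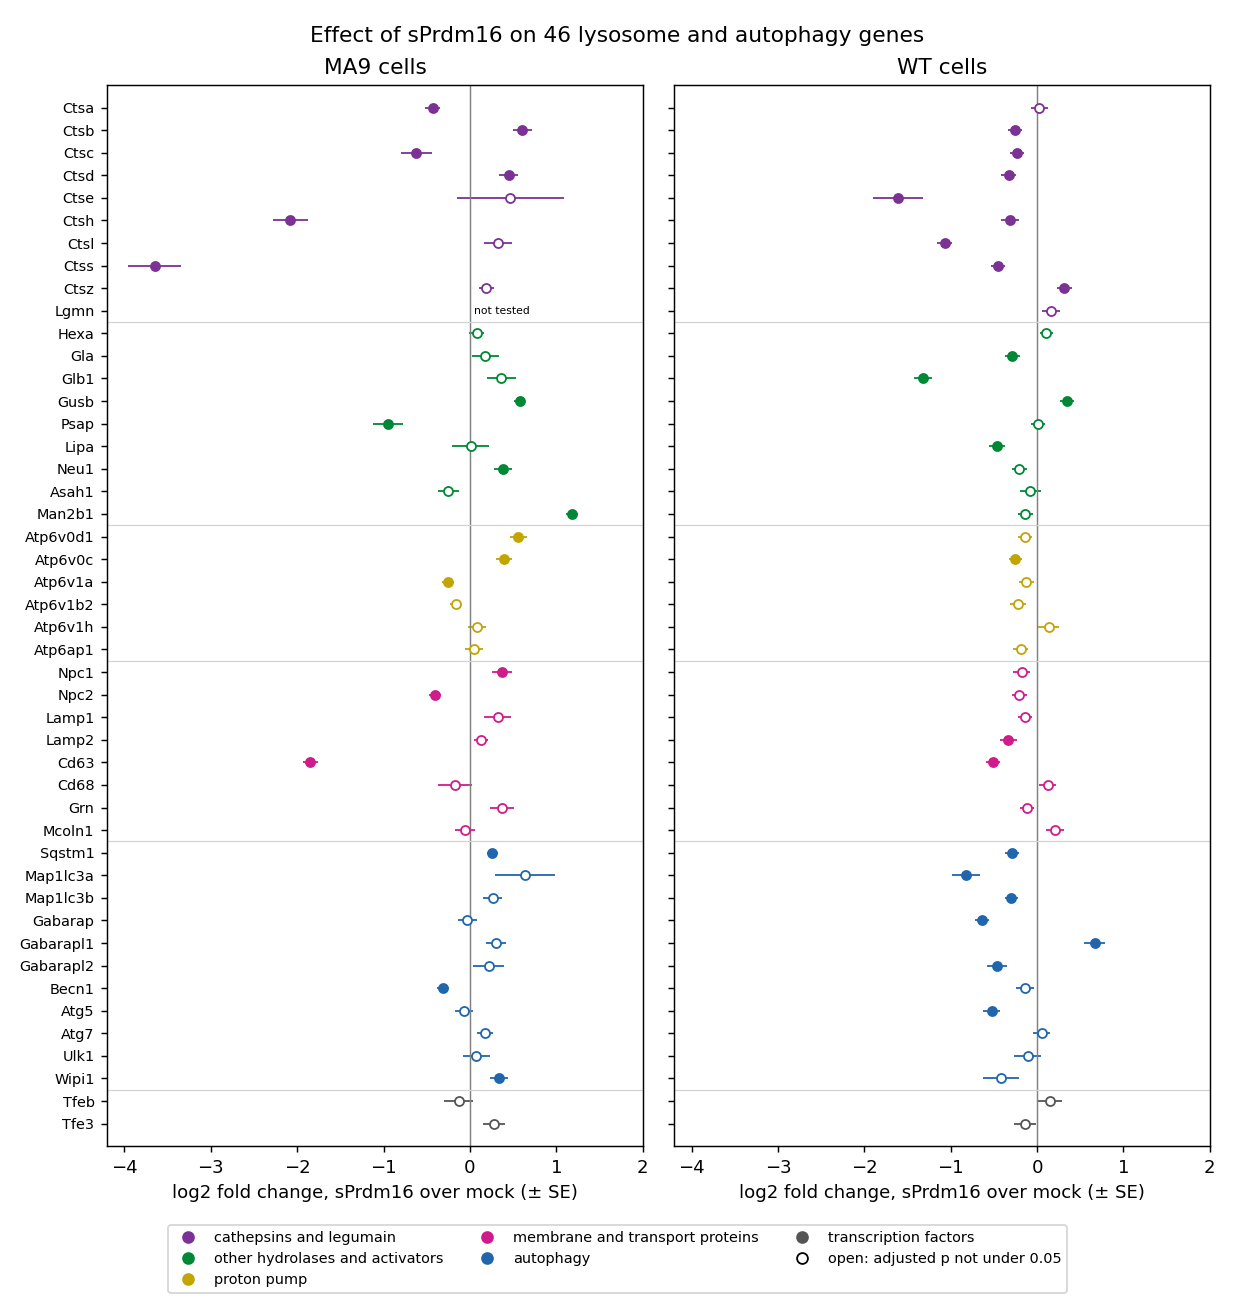
Log2 fold change of sPrdm16 over mock in MA9 and WT cells for the 46 genes by role group (Lgmn in WT cells alone), with bars of 1 SE and filled points for genes with an adjusted p under 0.05. Ctss, Ctsh and Cd63 lie far below 0 in MA9 cells and Man2b1 above 1, while in WT cells Ctse, Glb1 and Ctsl lie below -1.

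In the cathepsins, Ctss and Ctsh fell deeply in MA9 cells while Ctsb and Ctsd rose, and in WT cells 7 of 10 fell. In MA9 cells 2 rose and 4 fell of 9 tested, and in WT cells 1 rose and 7 fell of 10. These are 66.7% and 80% called, against 34.6% and 34.1% of all genes. With total counts 7 rose and 1 fell in MA9 cells and 2 rose and 3 fell in WT cells. Ctss, at chromosome 3, bases 95526786 to 95556403 of mm10, had 33.3, 63.4 and 71.4 CPM in the MA9 mock libraries and 4.54, 3.51 and 5.35 with sPrdm16. Mock replicate 1 was the lowest of its group and still lay more than 6 times above each sPrdm16 library. The log2 fold change was -3.65 (SE 0.31, adjusted p = 0.00011), and with total counts it was -2.15 and still called. In WT cells Ctss went from 2652, 2491 and 2510 CPM to 1832, 1830 and 1932, with no overlap and a log2 fold change of -0.45 (SE 0.076, adjusted p = 0.00036). The WT call ended in 1 fit over all 12 libraries (-0.44, adjusted p = 0.094). The fall was deeper in MA9 than in WT cells by 3.12 on the log2 scale (interaction -3.12, SE 0.29, adjusted p = 2.9e-06).

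Ctsh, an aminopeptidase, had 9.10, 11 and 13.7 CPM in MA9 mock and 2.60, 2.87 and 2.41 with sPrdm16. The groups did not overlap, and the log2 fold change was -2.08 (SE 0.20, adjusted p = 8.4e-05). With total counts it was -0.62 and no longer called (adjusted p = 0.14). In WT cells the values were 123, 121 and 103 against 90.3, 97.7 and 91.9 CPM, again without overlap (log2 fold change -0.31, adjusted p = 0.026). That WT call ended without any 1 of 5 libraries, all but mock replicate 3, with adjusted p from 0.0569 to 0.0888. It also ended in 1 fit over 12 libraries (0.0653) and with total counts (0.30). The interaction was -1.67 (adjusted p = 5.0e-06), and with total counts -0.48 (adjusted p = 0.20).

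Ctsl fell in WT cells, from 941, 881 and 819 CPM to 396, 424 and 440. The groups lay well apart, and the log2 fold change was -1.07 (SE 0.085, adjusted p = 2.9e-07). In MA9 cells Ctsl had 10.1, 12.9 and 16.1 CPM in mock and 17.2, 15.2 and 15.9 with sPrdm16, values that overlap (log2 fold change 0.32, adjusted p = 0.16). The interaction was 1.48 (SE 0.16, adjusted p = 2.2e-06).

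Ctse, an aspartic protease of endosomes, fell in WT cells from 10.3, 10.5 and 8.92 CPM to 4.02, 2.56 and 3.10 (log2 fold change -1.61, SE 0.29, adjusted p = 0.00064). In MA9 mock it rested on 36, 8 and 2 counts and was not called. The interaction of 2.15 (adjusted p = 0.024) ended without MA9 mock replicate 2 (adjusted p = 0.0641), MA9 sPrdm16 replicate 1 (0.0627) or WT sPrdm16 replicate 2 (0.0542). Lgmn had 15, 10 and 6 counts in MA9 mock and 9, 10 and 7 with sPrdm16, in libraries of different depth, and 144, 131 and 120 CPM against 140, 163 and 138 in WT cells. Its WT libraries overlapped. Its interaction was -2.09 (SE 0.34, adjusted p = 0.00018) with TMM and -0.95 (adjusted p = 0.083) with total counts.

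The abundant cathepsins B and D rose in MA9 cells and fell in WT cells with TMM scaling, and the WT falls were not called with total counts. Ctsb rose in MA9 cells from 55.3, 70.4 and 78.6 CPM to 108, 102 and 99.7 (log2 fold change 0.61, SE 0.11, adjusted p = 0.0029). In WT cells it fell from 2890, 2638 and 2800 CPM to 2427, 2299 and 2253 (log2 fold change -0.25, adjusted p = 0.020). Groups did not overlap in either genotype, and the interaction was 0.94 (adjusted p = 7.6e-05). Ctsd rose in MA9 cells from 114, 142 and 165 CPM to 195, 193 and 185 (log2 fold change 0.45, adjusted p = 0.014) and fell in WT cells from 6580, 6212 and 5561 to 4905, 4736 and 4966 (log2 fold change -0.33, adjusted p = 0.0063). Its groups did not overlap either, and the interaction was 0.86 (adjusted p = 0.00033). The MA9 call of Ctsd ended without MA9 mock replicate 2 (adjusted p = 0.0632) or MA9 sPrdm16 replicate 1 (0.0521). The WT call of Ctsb ended without WT mock replicate 1 (0.0688), sPrdm16 replicate 2 (0.0995) or sPrdm16 replicate 3 (0.0742), and in 1 fit over 12 libraries (0.0684). With total counts the WT values were -0.08 for Ctsb (adjusted p = 0.45) and -0.15 for Ctsd (adjusted p = 0.14). The gene Fdft1 overlaps Ctsb on the opposite strand with counts equal to 6.0% of those of Ctsb, and it rose in MA9 cells too (log2 fold change 0.62, adjusted p = 0.011).

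Of the other cathepsins, Ctsa (protective protein) fell in MA9 cells with a log2 fold change of -0.43 and had 0.03 in WT cells, and with total counts it was called as a rise in MA9 cells (1.01, adjusted p = 0.0027). Ctsc, which activates granule serine proteases, fell in both, by -0.62 and -0.23 on the log2 scale. Its MA9 call ended without MA9 mock replicate 2 or any MA9 sPrdm16 library (adjusted p from 0.0619 to 0.0888), and its WT call without WT mock replicates 1 or 2 or sPrdm16 replicates 2 or 3 (0.0586 to 0.164). Both calls ended with no filter (0.0608 and 0.0785), and the WT call in 1 fit over 12 libraries (0.21). With total counts Ctsc was called as a rise in MA9 cells (0.86, adjusted p = 0.011) and was not called in WT cells (-0.06, adjusted p = 0.61). Ctsz rose in WT cells (log2 fold change 0.31, adjusted p = 0.012), a call that ended without WT sPrdm16 replicate 3 (0.0609), and had 0.19 in MA9 cells (adjusted p = 0.11). Nelfcd overlaps Ctsz on the opposite strand with counts equal to 5.7% of those of Ctsz, and it rose in WT cells too (log2 fold change 0.63, adjusted p = 0.0097).

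**Figure D3:**
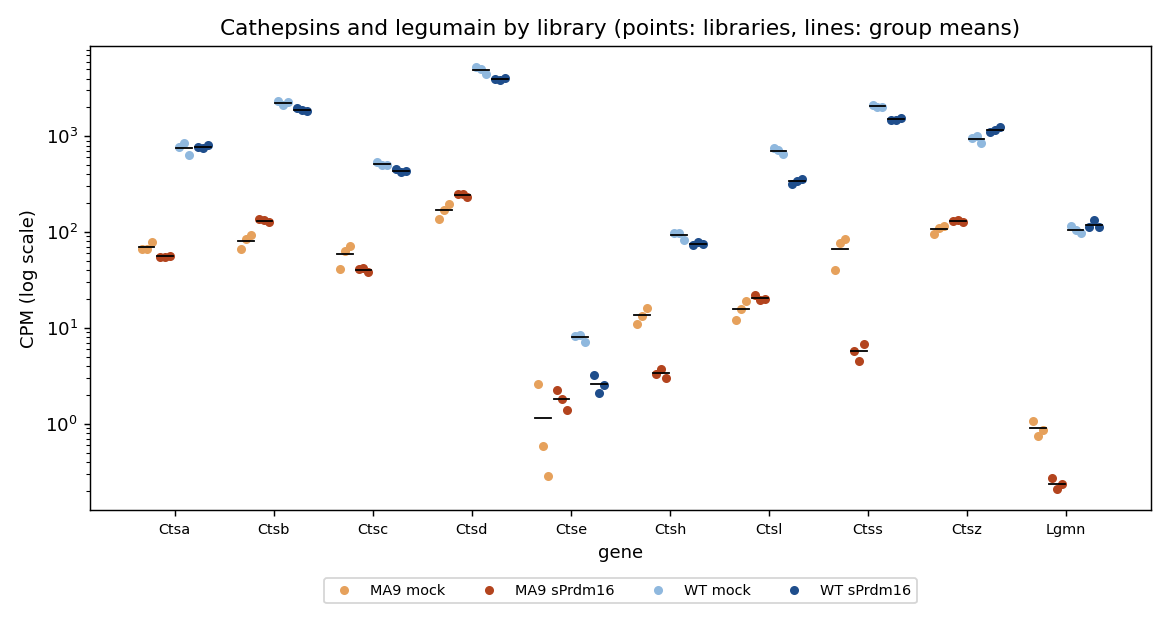
CPM of the cathepsin genes in each library on a log axis, scaled over 12 libraries, with points for libraries and lines for group means. The MA9 sPrdm16 points of Ctss and Ctsh lie far below the MA9 mock points, and the WT sPrdm16 points of Ctsl and Ctse below the WT mock points.

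Within the group the makeup of the cathepsin message moved. As a share of the summed CPM per kb of the 10 proteases, Ctss went from 18.2% ± 3.65 (SD, n = 3) in MA9 mock to 1.56% ± 0.336 with sPrdm16, and from 27.5% ± 1.19 to 23.9% ± 0.258 in WT cells. Ctsd went from 29.7% ± 0.663 to 42.4% ± 0.542 in MA9 cells, and from 41.9% ± 1.09 to 39.7% ± 0.463 in WT cells. Ctsz went from 28.3% ± 2.30 to 33.4% ± 0.510 in MA9 and from 11.8% ± 0.714 to 17.4% ± 0.714 in WT cells. In MA9 cells Ctsd and Ctsz had the largest shares both in mock and with sPrdm16, and Ctss stayed the second largest share in WT cells. Shares within a library are tied, so that a lower share of Ctss raises those of the other genes.

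**Figure D4:**
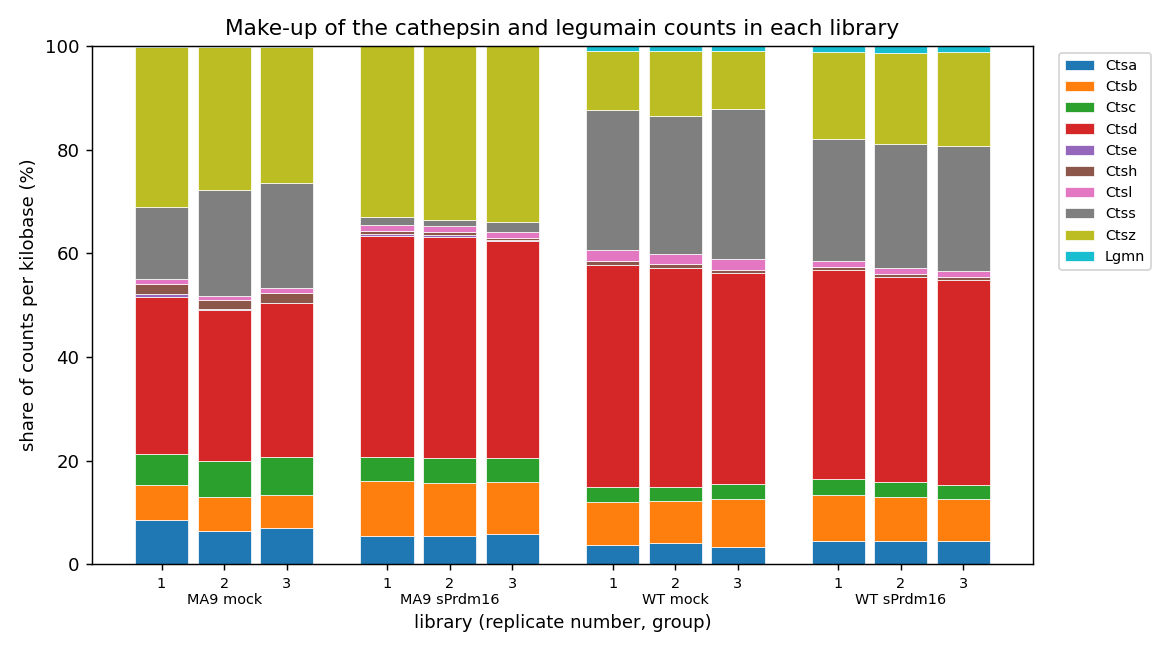
Share of each cathepsin gene in the summed CPM per kb of the 10 protease genes, in percent, stacked for each of the 12 libraries. The Ctss part is 13.9% to 20.3% in MA9 mock libraries and 1.22% to 1.89% in MA9 sPrdm16 libraries.

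Markers of blood cell types also changed with sPrdm16, in directions that differed between the lists. In MA9 cells 11 of 13 tested monocyte and macrophage markers fell and 1 rose, and the summed level of all 20 went from between 978 and 1611 CPM to between 767 and 782, with C1qa, C1qb and C1qc at 0 in both MA9 groups. Csf1r, the receptor that defines the lineage, fell in MA9 cells with a log2 fold change of -3.11 and rose in WT cells with 0.28. In WT cells 14 of 18 tested markers of this list fell and 1 rose (3533 to 3742 CPM against 2457 to 2527). WT neutrophil markers went from between 27290 and 33320 CPM to between 7321 and 7755, with 12 of 17 fallen and 3 risen. WT mast cell and basophil markers went from between 5616 and 6231 to between 590 and 643, with 11 of 12 fallen and 1 risen. Dendritic cell and MHC class II markers went from between 783 and 918 CPM to between 2863 and 3217 in WT cells, with 7 of 9 tested risen and 0 fallen. Eosinophil markers fell in both genotypes, 6 of 7 tested in each, from between 85 and 130 CPM to between 10.0 and 11.7 in MA9 and from between 302 and 347 to between 16.4 and 23.4 in WT cells. In MA9 cells 6 of 16 tested neutrophil markers rose and 5 fell (2164 to 2634 CPM against 2651 to 2736). Of all genes tested, 17% rose and 17.5% fell in MA9 cells, and 17.5% rose and 16.6% fell in WT cells. The marker values use TMM scaling alone and were not read under another scaling. With total counts the median of all genes in MA9 cells moves to 1.43 on the log2 scale. The part of these cell types in the changes of cathepsin and other lysosome genes was not tested.

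Among the other hydrolases, Man2b1 rose more than 2-fold in MA9 cells and Glb1 fell to 0.400 of its level in WT cells. In MA9 cells 3 of 9 rose and 1 fell, and in WT cells 1 rose and 3 fell. These are 44.4% called in each genotype, against 34.6% and 34.1% of all genes in MA9 and WT cells. With total counts 8 rose and 0 fell in MA9 cells and 2 rose and 2 fell in WT cells. Man2b1 (lysosomal alpha-mannosidase; chromosome 8, bases 85083270 to 85098282) had 98.8, 110 and 117 CPM in MA9 mock and 249, 246 and 244 with sPrdm16. Each sPrdm16 library lay more than 2-fold above each mock library, with a log2 fold change of 1.19 (SE 0.069, adjusted p = 5.9e-06). In WT cells its values overlapped, at 422, 397 and 360 CPM against 349, 350 and 374, and it was not called (log2 fold change -0.14). The interaction was 1.41 (SE 0.12, adjusted p = 1.0e-07).

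Glb1 (chromosome 9, bases 114401076 to 114474898) fell in WT cells from 362, 309 and 287 CPM to 143, 122 and 117, with no overlap and a log2 fold change of -1.32 (SE 0.11, adjusted p = 3.4e-07). In MA9 cells it had 8.63, 9.65 and 12.9 CPM in mock and 13.7, 14.2 and 11.5 with sPrdm16, which overlap. The interaction was 1.78 (adjusted p = 1.8e-06). The neighbouring gene Tmppe lies within Glb1 on the same strand, with counts equal to 14.7% of those of Glb1, and Glb1 counts were not whole in all 12 libraries, so some reads may be shared. Tmppe itself had a log2 fold change of -0.43 in WT cells (adjusted p = 0.058).

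Psap, per kb the most abundant of the hydrolase group in MA9 mock and in WT cells, fell in MA9 cells from 135, 192 and 235 CPM to 95.5, 97.3 and 97.6 (log2 fold change -0.95, SE 0.17, adjusted p = 0.0037). The mock libraries were spread but all lay above the sPrdm16 ones. With total counts the value was 0.54, the opposite sign and not called (adjusted p = 0.094), and the call ended with no filter (0.0572). In WT cells Psap had 6295, 5867 and 5921 CPM against 6382, 5928 and 5903, which overlap (log2 fold change 0.01). As a share of the hydrolase group's CPM per kb, which needs no scaling, Psap went from 34.8% ± 4.04 to 16.8% ± 0.188 in MA9 cells and from 73.5% ± 0.167 to 75.2% ± 0.582 in WT cells. Man2b1 went from 14.3% ± 1.11 to 29.8% ± 0.303 in MA9 cells and from 3.33% ± 0.185 to 3.09% ± 0.203 in WT cells.

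Gusb (beta-glucuronidase) rose in both genotypes, and was the 1 gene of the 46 to do so. It went from 64.3, 72.8 and 70.6 CPM to 103, 104 and 102 in MA9 cells (log2 fold change 0.57, SE 0.066, adjusted p = 0.00020). In WT cells it went from 317, 317 and 292 to 396, 376 and 403 (log2 fold change 0.34, SE 0.081, adjusted p = 0.0042). Groups did not overlap in either genotype. Lipa, the acid lipase that frees cholesterol and fatty acids, fell in WT cells from 333, 318 and 335 CPM to 266, 219 and 231 (log2 fold change -0.46, adjusted p = 0.0011) and overlapped in MA9 cells (12, 11.8 and 21.8 against 16.1, 14.3 and 14.3).

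Gla fell in WT cells with -0.29 on the log2 scale, a call that ended without any 1 of the 3 WT sPrdm16 libraries (adjusted p from 0.051 to 0.0669), with no filter (0.0559), in 1 fit over 12 libraries (0.0581) and with total counts (0.34). Neu1 (sialidase) rose in MA9 cells with 0.38, a call that ended without any 1 of the 3 MA9 sPrdm16 libraries (0.0658 to 0.0871). Hexa (a beta-hexosaminidase subunit) and Asah1 (acid ceramidase) were called in neither genotype, with log2 fold changes between -0.25 and 0.11.

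Of the proton pump genes, Atp6v0d1 and Atp6v0c rose and Atp6v1a fell in MA9 cells, and Atp6v0c fell in WT cells. In MA9 cells 2 of 6 subunit genes rose and 1 fell, and in WT cells 0 rose and 1 fell. These are 50% and 16.7% called, against 34.6% and 34.1% of all genes. With total counts all 6 rose in MA9 cells and 0 were called in WT cells. On nuclear protein-coding genes only, the falls were 2 in MA9 and 3 in WT cells. Atp6v0d1, a subunit of the membrane sector, rose in MA9 cells from 26.7, 31.4 and 32.0 CPM to 47.6, 41.9 and 43.1 (log2 fold change 0.56, SE 0.097, adjusted p = 0.0019). Its groups did not overlap. Its WT libraries had 178, 178 and 177 CPM in mock and 161, 157 and 167 with sPrdm16, and the gene was not called there (log2 fold change -0.14, adjusted p = 0.23).

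Atp6v0c, the subunit of the rotating ring, rose in MA9 cells from 60.6, 73.6 and 78.6 CPM to 93.8, 93.4 and 91.6 (log2 fold change 0.39, adjusted p = 0.0090). In WT cells it fell from 1705, 1631 and 1753 to 1419, 1421 and 1429 (log2 fold change -0.25, adjusted p = 0.017), a call that ended without WT sPrdm16 replicate 2 (0.0837) and with total counts (-0.08, adjusted p = 0.43). The groups did not overlap in either genotype and the interaction was 0.73 (adjusted p = 0.00021). Atp6v1a fell in MA9 cells with -0.25, a call that ended without any 1 of the 3 MA9 sPrdm16 libraries (0.0753 to 0.108), with no filter (0.11) and in 1 fit over 12 libraries (0.17), and that was a called rise with total counts (1.19, adjusted p = 0.00027). Atp6v1b2, Atp6v1h and the accessory subunit gene Atp6ap1 were called in neither genotype, with log2 fold changes between -0.22 and 0.14, and Atp6v1b2 had 595, 492 and 531 CPM in WT mock and 498, 449 and 439 in WT sPrdm16, which overlap.

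Among membrane and transport proteins, Cd63 fell in both genotypes and far more in MA9 cells. Of the 8 genes, 1 rose and 2 fell in MA9 cells and 0 rose and 2 fell in WT cells. These are 37.5% and 25% called, against 34.6% and 34.1% of all genes. With total counts 7 rose and 0 fell in MA9 cells and 2 rose and 1 fell in WT cells. Cd63 (chromosome 10, bases 128900989 to 128912822) had 71.8, 68.5 and 60.2 CPM in MA9 mock and 18.8, 17.9 and 19.1 with sPrdm16. The libraries of each group lay close together and more than 3-fold from the other group, with a log2 fold change of -1.85 (SE 0.088, adjusted p = 2.1e-06). In WT cells it went from 2586, 2712 and 2828 to 1837, 1838 and 2041 CPM (log2 fold change -0.51, SE 0.0805, adjusted p = 0.00021). The interaction was -1.26 (SE 0.125, adjusted p = 8.6e-07), and with total counts the MA9 value was -0.46 (adjusted p = 0.18) and the interaction -0.12 (adjusted p = 0.76). Its counts were not whole in all 12 libraries.

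Npc2, the soluble carrier that hands cholesterol to the membrane protein Npc1, fell in MA9 cells from 81.8, 74.5 and 82.5 CPM to 62.0, 59.8 and 58.3 (log2 fold change -0.41, SE 0.068, adjusted p = 0.0016). Its groups did not overlap in MA9 cells and overlapped in WT cells (424, 392 and 424 against 337, 341 and 398). With total counts Npc2 was called as a rise in MA9 cells (1.01, adjusted p = 0.0024). Npc1 rose in MA9 cells with 0.37 on the log2 scale, a call that ended without MA9 mock replicate 1 (adjusted p = 0.0656) or MA9 sPrdm16 replicates 2 (0.119) or 3 (0.108). The gene Rmc1 overlaps Npc1 on the opposite strand with counts equal to 49.7% of those of Npc1, and since no source used here says whether strand was recorded, their reads may be mixed. Rmc1 had a log2 fold change of -0.18 in MA9 cells (adjusted p = 0.18).

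Lamp2, a membrane protein needed for fusion with autophagosomes, fell in WT cells from 403, 336 and 396 CPM to 325, 313 and 265 (log2 fold change -0.33, adjusted p = 0.019). That call ended without WT mock replicate 1 (0.0695) or WT sPrdm16 replicate 3 (0.094) and with total counts (0.26), and in MA9 cells Lamp2 had 0.13 (adjusted p = 0.26). Lamp1, Grn, Cd68 and Mcoln1 were called in neither genotype. For Lamp1 the values were 0.32 in MA9 and -0.14 in WT cells, and for Grn 0.37 and -0.12, and the interactions of both were called (0.54 with adjusted p = 0.027, and 0.57 with adjusted p = 0.014). The Lamp1 interaction ended without MA9 sPrdm16 replicate 1 (0.0526), WT mock replicate 1 (0.0537) or WT sPrdm16 replicate 3 (0.0605).

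In the autophagy genes the fall in WT cells touched most of the LC3 and GABARAP family, which couples to lipid on the growing membrane, and not Gabarapl1, which rose. In WT cells 1 of 11 genes rose and 6 fell, and in MA9 cells 2 rose and 1 fell. These are 63.6% and 27.3% called, against 34.1% and 34.6% of all genes. With total counts 1 rose and 3 fell in WT cells and all 11 rose in MA9 cells. Gabarap fell in WT cells from 628, 619 and 677 CPM to 400, 419 and 420, without overlap (log2 fold change -0.63, SE 0.079, adjusted p = 2.6e-05). In MA9 cells it had 32.5, 41.6 and 44.8 against 37.6, 38.3 and 40.0 CPM, which overlap (log2 fold change -0.03), and the interaction was 0.69 (adjusted p = 0.00086). Gabarapl1 rose in WT cells from 57.5, 44.3 and 52.1 CPM to 86.5, 76.9 and 80.8 (log2 fold change 0.67, SE 0.12, adjusted p = 0.00065). Its groups did not overlap in WT cells, and in MA9 cells its value was 0.30 (adjusted p = 0.077).

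Map1lc3a fell in WT cells from 32.3, 31.1 and 35.2 CPM to 17.3, 21.6 and 16.7 (log2 fold change -0.83, SE 0.16, adjusted p = 0.0011). In MA9 cells it was low, with 2.86, 1.22 and 2.92 CPM against 4.26, 3.05 and 3.37, groups that did not overlap and were not called (log2 fold change 0.64, adjusted p = 0.19). The interaction was 1.55 (SE 0.35, adjusted p = 0.0025). Map1lc3b fell in WT cells with -0.30, a call that ended without WT sPrdm16 replicate 2 (0.0758), and Gabarapl2 with -0.46. With total counts neither was called in WT cells (adjusted p = 0.24 and 0.0822), and with TMM neither was called in MA9 cells (0.26 and 0.22). Within the summed CPM per kb of these 5 family members, Gabarapl1 went from 4.11% ± 0.498 to 9.19% ± 0.629 in WT cells and Gabarap from 69.2% ± 0.659 to 62.8% ± 1.14. In MA9 cells the Gabarapl1 share was 13.6% ± 2.41 in mock and 15.1% ± 1.14 with sPrdm16, within the spread.

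**Figure D5:**
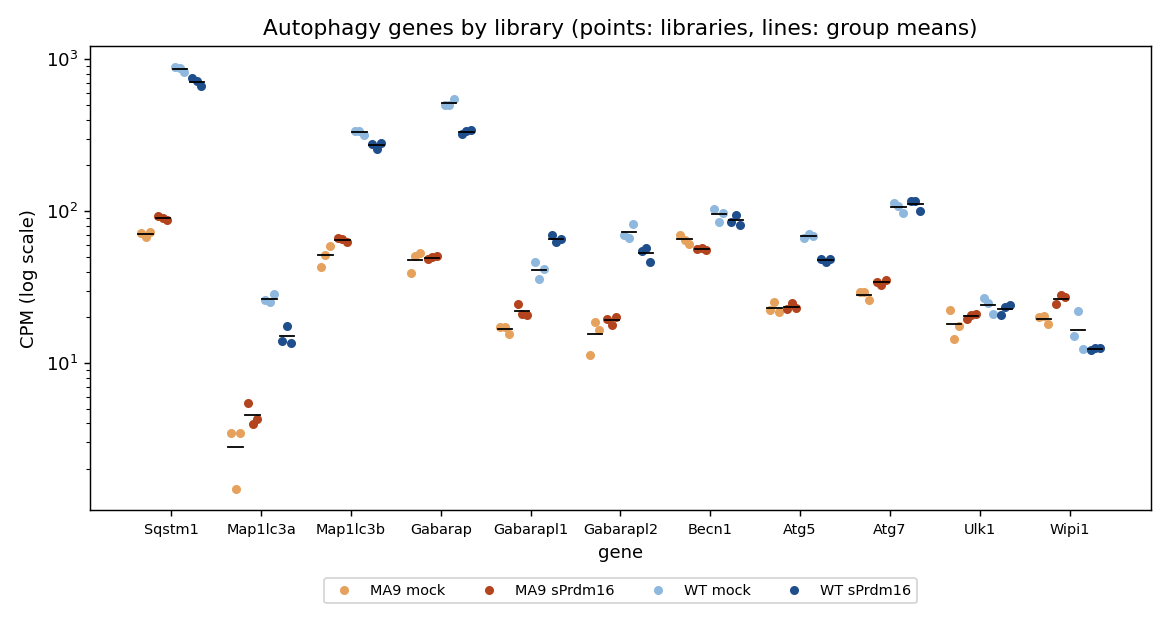
CPM of the 11 autophagy genes in each library on a log axis, scaled over 12 libraries, with points for libraries and lines for group means. In WT cells Gabarap, Atg5 and Map1lc3a are lower with sPrdm16 and Gabarapl1 is higher.

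Sqstm1 (p62, a receptor that links cargo to LC3) rose in MA9 cells from 59.1, 55.8 and 61.7 CPM to 72.3, 69.2 and 69.6 (log2 fold change 0.26, adjusted p = 0.015) and fell in WT cells from 1110, 1083 and 1024 to 928, 887 and 824 (log2 fold change -0.29, adjusted p = 0.013). The groups did not overlap in either genotype and the interaction was 0.63 (adjusted p = 0.00031). The MA9 call ended without MA9 mock replicate 2 or any MA9 sPrdm16 library (0.0557 to 0.079), and the WT call without WT sPrdm16 replicates 2 (0.0593) or 3 (0.0626) and with total counts (-0.11, adjusted p = 0.31). Becn1 fell in MA9 cells from 57.8, 53.7 and 51.5 CPM to 44.0, 43.8 and 43.8 (log2 fold change -0.31, adjusted p = 0.0090), without overlap. That call ended without any 1 of the 3 MA9 sPrdm16 libraries (0.0532 to 0.0552), with no filter (0.072) and in 1 fit over 12 libraries (0.12). With total counts Becn1 was called as a rise (1.09, adjusted p = 0.0013).

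Atg5, whose product joins Atg12 to promote LC3 lipidation, fell in WT cells with a log2 fold change of -0.52 (SE 0.10, adjusted p = 0.0010) and had -0.07 in MA9 cells. Wipi1 rose in MA9 cells with 0.34, a call that ended without MA9 mock replicate 2 or any MA9 sPrdm16 library (0.0504 to 0.14), at 5 CPM in 3 libraries (0.0565) and in 1 fit over 12 libraries (0.0758). Atg7, the activating enzyme of the conjugation system, and Ulk1 were called in neither genotype, with log2 fold changes between -0.11 and 0.17. The transcription factor genes Tfeb and Tfe3 were called in neither genotype. Tfe3 had 13.2, 12.6 and 9.85 CPM in MA9 mock and 14.7, 14.0 and 14.9 with sPrdm16, which did not overlap (log2 fold change 0.28, adjusted p = 0.14), and 66.4, 60.1 and 59.1 against 64.1, 47.0 and 57.1 in WT cells, which did. Tfeb had 6.66, 6.72 and 8.51 against 6.62, 6.22 and 6.95 CPM in MA9 cells and 42.1, 40.9 and 32.5 against 43.4, 43.2 and 41.3 in WT cells, and its groups overlapped in both. With total counts both rose in MA9 cells.

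The difference between the sPrdm16 effects in MA9 and in WT cells was tested directly as an interaction over all 12 libraries. It was called for 28 of the 46 genes, 23 with the higher effect in MA9 cells and 5 with the lower (60.9% called, against 28.0% of all 16194 genes, 16.0% higher and 12% lower). The median difference was 0.41 on the log2 scale, against 0.08 for all genes. Of 162 tested genes of the wider lists given below, 40 were higher and 16 lower (34.6% called). The 46 genes and those lists were chosen with earlier results of these data known. With total counts, where the median of all genes is 1.21, 41 of the 46 genes were higher and 1 lower. Of all 16194 genes, 8177 were higher and 342 lower in that setting. The 5 genes with the lower effect in MA9 cells were Ctss, Lgmn, Ctsh, Cd63 and Psap. Of these, Lgmn was too low to be tested in MA9 cells and passed the filter over 12 libraries through its WT counts alone. Of the 5 role groups larger than a pair, the autophagy genes had 7 of 11 higher and 0 lower, the other hydrolases 6 of 9 higher and 1 lower, the membrane proteins 4 of 8 higher and 1 lower, the proton pump 2 of 6 higher and 0 lower, and the cathepsins 4 of 10 higher and 3 lower. By the calls of each genotype, which share no library, 4 genes rose in MA9 and fell in WT cells (Ctsb, Ctsd, Atp6v0c and Sqstm1), 4 fell in both (Ctsc, Ctsh, Ctss and Cd63) and 13 were called in neither. With total counts none of the WT falls of Ctsb, Ctsd, Atp6v0c and Sqstm1 was called, and Ctss alone of Ctsc, Ctsh, Ctss and Cd63 fell in both.

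The wider pathways were read from lists of other genes with the same roles. Calls and values of all these wider lists use TMM scaling alone and were not read under another scaling. With total counts the median of all genes moves to 1.43 in MA9 cells and 0.18 in WT cells on the log2 scale. Whether the rises and falls given for these lists hold with total counts was not tested. Of 31 other lysosomal hydrolases tested in MA9 cells 10 rose and 2 fell, and of 34 in WT cells 3 rose and 2 fell (38.7% and 14.7% called, against 34.6% and 34.1% of all genes), with median log2 fold changes of 0.20 and -0.06. Gaa, the acid alpha-glucosidase that breaks down glycogen, rose in both, with log2 fold changes of 0.69 (adjusted p = 0.00030) and 0.44 (adjusted p = 0.0023). In MA9 cells Arsb (arylsulfatase B) rose with 0.53 while Aga (aspartylglucosaminidase) fell with -0.46. In WT cells Scpep1, a serine carboxypeptidase, rose with 0.55, and Ctsk (cathepsin K) and Ppt1 (palmitoyl-protein thioesterase) fell with -0.99 and -0.35.

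Other proton pump genes fell in WT cells, 10 of 14 tested with 0 risen (71.4% called, median -0.43), led by Rnasek (-0.81, adjusted p = 6.2e-06) and the membrane-sector gene Atp6v0b (-0.66, adjusted p = 2.4e-05). In MA9 cells 3 of 13 fell and 0 rose (23.1% called, median -0.09), led by Atp6v0a1 and Tcirg1, which encode forms of the large membrane subunit (-1.17, adjusted p = 1.6e-05, and -0.53, adjusted p = 0.0014). Of membrane and sorting genes 5 rose and 9 fell of 35 in MA9 cells, and 7 rose and 7 fell of 36 in WT cells (40% and 38.9% called, near the shares of all genes, with medians of -0.13 and 0.02). The sorting receptor gene Sort1 rose in MA9 cells with 0.29 and fell in WT cells with -0.85, and its interaction was 1.22 (adjusted p = 3.4e-07). Tpcn1, an endolysosomal cation channel gene, rose in MA9 cells with 1.27 and the transporter gene Slc15a3 fell with -1.48. In WT cells the adaptor gene Gga2 rose with 1.12 and Cln3 fell with -0.45.

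Of 48 other autophagy genes 16 rose and 5 fell in MA9 cells, and 5 rose and 7 fell in WT cells (43.8% and 25% called, with medians of 0.08 and -0.06). In MA9 cells Calcoco1, a receptor for autophagy of the endoplasmic reticulum, rose with 1.22 (adjusted p = 4.2e-05) and Bnip3, a mitophagy receptor, with 0.97 (adjusted p = 0.00016), while Vps16 and Atg16l1 fell with -0.55 and -0.73. In WT cells Wipi2 and Vps33a rose with 0.65 and 0.45, and Rab7 and Bnip3l fell with -0.55 and -0.54. Rab7, the GTPase of late endosomes, rose in MA9 cells with 0.34, and its interaction was 0.97 (adjusted p = 1.2e-05).

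Of the genes for the kinase complex mTORC1, its regulators and factors related to TFEB, 2 rose and 6 fell of 28 in MA9 cells, and 3 rose and 9 fell of 29 in WT cells (28.6% and 41.4% called, against 34.6% and 34.1% of all genes, with medians of -0.04 and 0.05). Tfec, of the TFEB family, rose in both with 0.78 and 0.47. Deptor, an mTOR inhibitor, fell in MA9 cells with -0.95 (adjusted p = 0.0017) and rose in WT cells with 0.92 (adjusted p = 0.0048), and its interaction was -1.78 (adjusted p = 0.00013). In WT cells Lamtor4, of the complex that docks mTORC1 at the lysosome, fell with -0.96 and Fnip1 with -0.87.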

How the data were processed

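Per the labels, total RNA came from RNeasy columns and the library kit was Nextera XT. The authors deposited expected counts, estimates that can hold fractions, for every gene and library in a separate table for each genotype. Per the submitters' processing notes the tool was DRAGEN and the build mm10, with no version, and the annotation and the use of strand are not stated in the sources at hand. Between 5.19% and 10.2% of values per library were not whole, among them values of 16 of the 46 genes, and all were rounded here.

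The tests were robust quasi-likelihood F tests of edgeR 4.0.16 (R 4.3.3) after TMM scaling and filterByExpr with its minimum count of 10. MA9 and WT were fitted on their own 6 libraries each and the interaction on all 12, with Benjamini-Hochberg adjustment over all genes tested. CPM within a genotype follow that fit's scaling, and mock levels and the plots of CPM by library the scaling over 12 libraries. Shares were taken from counts per kb within each library, with no scaling factor. SEs come from the F statistic, SDs are over 3 libraries, and no interval of counting error was needed. No pair of replicates agreed within sampling noise, and the deepest disagreement was between MA9 mock replicate 3 and the others (chi-square per gene 112 and 138 against 24.6). The procedure was tested on simulated data.

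The 46 genes, the role groups and the other lists were chosen with earlier results of these data known. Values in every library are given for genes called with an absolute log2 value of at least 1 in any fit and for the 2 with the smallest p of each role group and genotype, and of each wider list up to 2 called genes per direction and genotype. Ctsb, Ctsd, Psap and the genes named for a second genotype or for ended calls were added after their values were seen. Alternatives were RLE scaling, total counts, no filter, at least 5 CPM in 3 libraries, DESeq2 1.42.0, limma-voom (limma 3.58.1), the replicate number as a block, nuclear protein-coding genes only, 1 fit over all 12 libraries and each library left out in turn. Promoters came from the RefSeq table of GRCm38.p6, the assembly that mm10 names. Protein sequences were not analysed here, and some genes of the wider lists are counted but not reported here by name.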

Additional observations from a re-analysis of the deposited data

Results flagged for a closer look

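The sPrdm16 effect differed between MA9 and WT cells for 28 of the 46 genes by the test of the difference itself (edgeR's interaction term over 12 libraries, adjusted over 16194 genes, 28.0% of which were called). Of 162 tested genes of the wider lists, 34.6% were called. Values are log2 effects in MA9 minus those in WT cells.

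Among the proteases the difference was -3.12 for Ctss, -2.09 for Lgmn and -1.67 for Ctsh, and it was 2.15 for Ctse, 1.48 for Ctsl, 0.94 for Ctsb and 0.86 for Ctsd. Among the hydrolases it was 1.78 for Glb1, 1.41 for Man2b1, 0.66 for Neu1, 0.57 for Lipa, 0.55 for Gla, 0.31 for Gusb and -0.87 for Psap. The calls of Gusb and Lipa ended with RLE scaling (adjusted p = 0.0816 and 0.0791) and at 5 CPM in 3 libraries (0.0809 and 0.0667), and that of Lipa with DESeq2 (0.082). With total counts those of Ctsh (-0.48, adjusted p = 0.20), Lgmn (-0.95, 0.0831), Cd63 (-0.12, 0.76) and Psap (0.36, 0.20) ended. Gusb rose in both genotypes, and its call also ended without 7 of the 12 libraries left out in turn, with adjusted p from 0.0599 to 0.0938. The call of Lipa ended without 10 of the 12, with adjusted p from 0.0561 to 0.16.

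In the proton pump the difference was 0.78 for Atp6v0d1 and 0.73 for Atp6v0c. Among membrane and transport proteins it was 0.63 for Npc1, 0.57 for Grn, 0.54 for Lamp1, 0.54 for Lamp2 and -1.26 for Cd63. Among autophagy genes it was 1.55 for Map1lc3a, 0.84 for Wipi1, 0.76 for Gabarapl2, 0.69 for Gabarap, 0.64 for Map1lc3b, 0.63 for Sqstm1 and 0.54 for Atg5. Of the 28 calls, 24 held whichever library was left out, and Ctse, Gusb, Lipa and Lamp1 did not. Lgmn, too low to be tested in MA9 cells, passed the filter through its WT counts alone.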

How the results depend on the processing

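Total counts with no scaling factor changed most. Against TMM they called 42 genes in MA9 cells (41 higher, 1 lower, against 10 and 9), 7 higher and 9 lower in WT cells (against 3 and 19), and 41 higher and 1 lower in the interaction (against 23 and 5). Of all genes called, the share that rose was 95.0% against 49.3% in MA9 and 71.0% against 51.3% in WT cells, and 96.0% against 57.1% in the interaction. Signs turned in MA9 cells for Ctsa (1.01), Ctsc (0.86), Psap (0.54), Asah1 (1.21), Atp6v1a (1.19), Atp6v1b2 (1.25), Npc2 (1.01), Cd68 (1.30), Mcoln1 (1.34), Gabarap (1.42), Becn1 (1.09), Atg5 (1.34) and Tfeb (1.31). In the interaction they turned for Ctsa (0.81), Ctsc (0.92), Ctsz (1.14), Psap (0.36), Asah1 (1.12), Atp6v1a (1.13), Npc2 (1.05), Cd68 (0.999), Mcoln1 (0.96), Gabarapl1 (0.86), Becn1 (1.06) and Tfeb (0.99). With no filter 17 were higher and 5 lower in MA9 cells, and in 1 fit over 12 libraries 17 were higher; the cause was not tested. Leaving out each library gave 12 to 30 calls in MA9 cells (6 to 19 higher, 6 to 11 lower), 15 to 23 in WT cells (2 to 3 higher, 12 to 20 lower) and 24 to 30 in the interaction (19 to 25 higher, 5 to 6 lower). With the replicate number as a block, 10 were higher and 9 lower in MA9, 3 and 20 in WT cells, and 21 and 5 in the interaction. Libraries of the same number did not deviate together (correlations from -0.05 to 0.05). With 3 libraries per group this cannot tell whether a number marks a shared culture or preparation. The block ended the calls of Wipi1 in MA9 cells (adjusted p = 0.0885) and of Gusb (0.0759) and Lipa (0.0505) in the interaction. RLE, 5 CPM in 3 libraries, nuclear protein-coding genes only, DESeq2 and limma-voom kept each count of calls over the 46 genes within 1.5 times, while nuclear protein-coding genes only moved the proton pump falls from 1 to 3 in WT and from 1 to 2 in MA9 cells. Depth limits MA9 cells most: Lgmn, Ctse and Map1lc3a had 2 to 48 counts per mock library there.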

Other observations

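Replicates of a group were not alike in these genes. Within MA9 mock, replicate 3 had the highest CPM of the 3 libraries for 29 of the 46 genes (63.0%), against 36.7% of all 14394 genes tested, and replicate 1 the lowest for 24 (52.2%), against 33.8%. Within WT mock, replicate 1 was the highest for 27 of the 46 (58.7%), against 33.4% of all 14063 genes tested. The reason was not tested.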
